A study of Homo sapiens with 4 samples.

Results

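S100 genes encode small proteins that bind calcium through EF-hand loops, and 10 of them were followed here in HCT116, a human colon carcinoma cell line, with and without an intact TOP3B gene. The members S100A2, S100A3, S100A4, S100A6, S100A10, S100A11, S100A13, S100A14, S100A16 and S100P were found by symbol among the 35820 rows of the deposited count table, and all 10 had a row. They were selected on the measured difference between knockout and wild type in these same libraries, in which S100A14 and S100A4 were lower in the knockout, and on the family name. The contrast is therefore described for all 10 without a p-value, and nothing is supported with it. Wild-type (WT) HCT116 cells gave 2 libraries. The other 2 came from E2-4, a knockout (KO) clone of the same line in which CRISPR and a guide RNA were directed at exon 2 of TOP3B, the gene of a topoisomerase that acts on RNA as well as DNA. The labels name no treatment for either group and the same serum-containing medium for both. There was 1 KO clone, so clone and genotype cannot be told apart, and no label tells whether replicates were grown as separate cultures. A p-value below thus reflects only how far these libraries spread, which may be technical.

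The libraries were made from total RNA after removal of ribosomal RNA and held 10450048 to 16143634 estimated counts in genes. Levels are given as CPM, counts scaled to a common library size with TMM factors, which correct for a few abundant genes taking up a library. That factor was 0.858 in WT replicate 1 and 1.04 to 1.06 in the other 3 libraries. TOP3B itself was measured at 57.1 and 66.5 CPM in WT and 43.9 and 54.7 CPM in KO (adjusted p = 0.522 by edgeR's quasi-likelihood test). This RNA level does not check the genotype, since an edited gene can still be transcribed. Of the epithelial markers EPCAM, CDH1, KRT8, KRT18, KRT19, CLDN4, CLDN7 and VIL1, 7 of 8 passed the filter on low counts and VIL1 had 1 count in all. Of 6 fibroblast markers 3 had 0 counts in every library, among them COL1A2 and COL3A1, and the list summed to 0.633 to 1.72 CPM. Of 6 leukocyte markers 4 had 0 counts, including PTPRC, with a sum of 1.29 to 3.01 CPM, and the 3 endothelial markers in the table summed to at most 0.0819 CPM. Estimates of some genes that every cell uses were low, such as ACTB with 426, 507, 600 and 1006 counts in WT replicates 1 and 2 and KO replicates 1 and 2. Levels set between genes carry this limit. Fold changes compare 1 gene between libraries, but whether the limit reaches them was not tested. The level of ACTB was 32.8 and 41.5 CPM in WT and 54.2 and 59.1 CPM in KO (log2 fold change 0.61, SE 0.17). EEF1A1 stood at 41.6 and 77.6 CPM in WT and 130.1 and 113.9 CPM in KO (1.03, SE 0.31). For GAPDH the values were 591.6 and 511.1 CPM in WT and 625.1 and 426.6 CPM in KO (-0.07, SE 0.22).

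As background, S100 proteins mostly work as dimers. On binding calcium through an EF-hand pair they open a surface that grips a target protein, and family members differ in the target they hold. S100A4 binds the heavy chain of non-muscle myosin and is known for a role in cell motility, S100A6 binds the ubiquitin-ligase adaptor CACYBP, and S100A11 and S100A10 pair with annexins. S100A14 is a divergent member found mainly in epithelia. Several members are also secreted and act on receptors such as AGER. Most of the family lies in 1 cluster on chromosome 1, where 9 of the 10 members sit on the minus strand; S100P lies on chromosome 4.

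S100A14 was the member with the largest difference among those that could be fitted. It reached 31.8 and 45.1 CPM in WT and only 3.98 and 5.64 CPM in KO, from 413, 551, 44 and 96 counts. The KO values lay far below either WT value. The group means were 38.5 ± 9.40 and 4.81 ± 1.17 CPM (SD, n = 2 each), 8.00-fold higher in WT, and the log2 fold change was -2.99 (SE 0.29). In bulk RNA, fewer cells that express a gene and less RNA per cell cannot be told apart. Set against its neighbours on either side, which needs no scaling of the libraries, S100A14 had 1.90 and 1.99 times the counts of S100A13 in WT and 0.200 and 0.274 times in KO. Against S100A16 the ratio was 0.673 and 1.84 in WT, so the WT libraries differed here, and 0.175 and 0.301 in KO. Leaving out any 1 library gave log2 fold changes between -3.27 and -2.70 in edgeR. As S100A14 was selected for its lower level in KO, nothing is read from this range.

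S100A4 was lower in KO by less, but with close replicates. It stood at 47.2 and 50.4 CPM in WT and at 27.6 and 26.6 CPM in KO, from 613, 615, 306 and 453 counts. Neither group's range came near the other's. The means were 48.8 ± 2.21 and 27.1 ± 0.744 CPM (SD, n = 2 each), a 1.80-fold higher level in WT, with a log2 fold change of -0.85 (SE 0.14). S100A3 lies inside the annotated span of S100A4 on the same strand, so reads of a shared stretch could be divided between both genes and each estimate is uncertain to that extent. S100A3 itself had 4 to 21 counts a library. Against S100A13 in the same library, S100A4 counts were 2.82 and 2.22 times as many in WT and 1.39 and 1.29 times as many in KO.

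The promoter stretches below are those of the S100A14 and S100A4 genes, and of S100A16, the gene beside S100A14, so that the neighbours can be compared. They were taken by symbol from RefSeq's GRCh38.p14 table, which held all 10 members. They run 5′ to 3′ on the minus strand, begin 250 bases before an annotated start and end where the first annotated exon is met. This left out the bases nearest the start, 30 for S100A14, 8 for S100A16 and 79 for S100A4. No motif was searched in the bases left out, so a match close to the start could be missed. S100A14 covers chr1:153616356-153616575, S100A16 covers chr1:153613146-153613387 and S100A4 covers chr1:153545886-153546056. Capitals mark matches on either strand to AGGAAG, a form of the ETS-factor motif, or CAGGTG, the E-box bound by ZEB and SNAIL repressors; the TATA box TATAAA and the GC box GGGCGG were searched too.
S100A14: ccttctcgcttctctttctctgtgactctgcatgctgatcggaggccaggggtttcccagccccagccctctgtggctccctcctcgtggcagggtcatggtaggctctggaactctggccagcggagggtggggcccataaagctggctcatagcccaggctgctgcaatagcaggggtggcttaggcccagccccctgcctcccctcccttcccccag
S100A16: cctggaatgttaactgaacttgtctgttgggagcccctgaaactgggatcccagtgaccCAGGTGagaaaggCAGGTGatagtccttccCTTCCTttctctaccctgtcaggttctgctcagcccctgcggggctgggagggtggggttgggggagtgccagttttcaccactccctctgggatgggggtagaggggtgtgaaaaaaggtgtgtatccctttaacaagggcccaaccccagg
S100A4: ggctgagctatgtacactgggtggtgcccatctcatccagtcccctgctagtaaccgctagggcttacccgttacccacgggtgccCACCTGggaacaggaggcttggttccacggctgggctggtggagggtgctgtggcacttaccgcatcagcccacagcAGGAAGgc
None of these letters occurred in the S100A14 stretch of 220 bases. S100A16 had AGGAAG once and CAGGTG at 2 places, and S100A4 had each of these once; no matches overlapped. The 35116 promoter stretches used for comparison were cut at the same end. At the length of the S100A4 window (171 bases), 19.9% held AGGAAG and 13.2% held CAGGTG. At the 242 bases of the S100A16 window these shares were 27.7% and 17.1%. TATAAA and GGGCGG occurred in 8.08% and 38.9% of stretches of 220 bases. Such matches describe the sequence and are no evidence of binding.

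**Figure D1:**
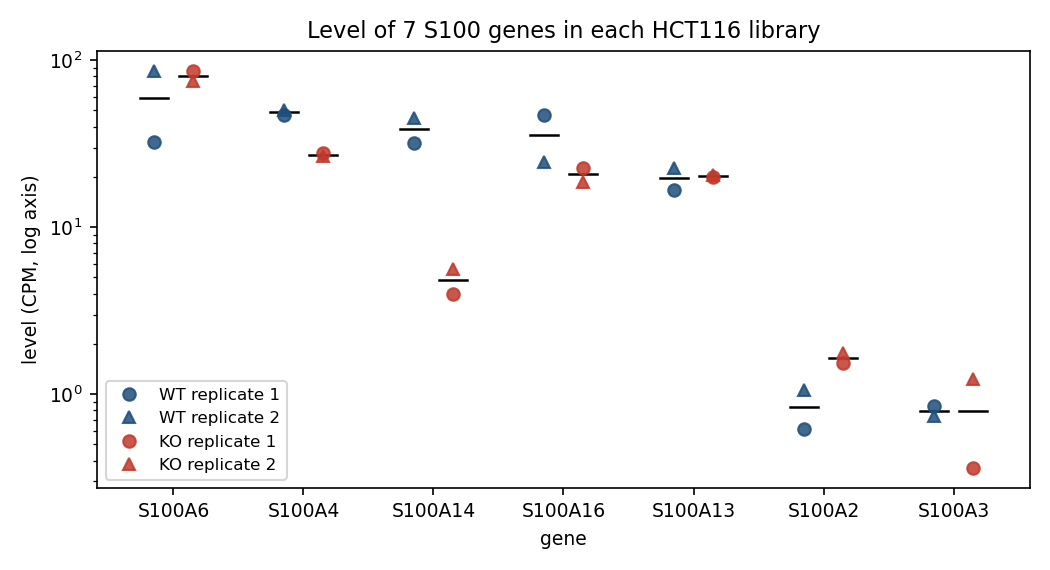
Level of the 7 S100 genes that passed the filter on low counts, in CPM on a log axis; points are single libraries (circles replicate 1, triangles replicate 2, WT blue, KO red) and bars are group means. S100A14 lies at 31.8 and 45.1 CPM in WT and at 3.98 and 5.64 CPM in KO, while the 2 WT points of S100A6 lie farther apart than its group means.

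S100A16, a widely expressed member encoded next to S100A14, had 47.3 and 24.5 CPM in WT and 22.7 and 18.7 CPM in KO. Its KO values were below either WT value, but WT replicate 2 was close to them. The means were 35.9 ± 16.1 and 20.7 ± 2.79 CPM (SD, n = 2 each) and the log2 fold change was -0.80 (SE 0.35). Without WT replicate 1 it was -0.24, and without WT replicate 2 it was -1.18. The size of this difference thus depended on which WT library was used. S100A4 ranged from -0.89 to -0.79 over the libraries left out in edgeR. As S100A4 was selected for its lower level in these KO libraries, nothing is read from that narrower range.

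S100A6, or calcyclin, had the widest gap between the WT libraries of the 7 members that were fitted. It was measured at 32.3 and 86.3 CPM in WT and at 86.7 and 75.1 CPM in KO. WT replicate 2 lay between both KO libraries and WT replicate 1 stood alone below them, 2.67-fold lower than its partner. A gap of at least 2-fold between the WT libraries was seen in 11.5% of all tested genes, and S100A6 was the 1 member of 7 with such a gap. Its means were 59.3 ± 38.2 and 80.9 ± 8.17 CPM (SD, n = 2 each; log2 fold change 0.45, SE 0.46). Without WT replicate 1 this value was -0.09 and without WT replicate 2 it was 1.34, so the data give no direction for S100A6.

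S100A13, which takes part in the export of FGF1 from cells, was level between the groups within the spread of its libraries. It had 16.7 and 22.7 CPM in WT and 19.9 and 20.5 CPM in KO, with both KO values inside the WT range. The log2 fold change was 0.04 (SE 0.21), and -0.17 without WT replicate 1. S100A1 overlaps S100A13 on the other strand, and whether strand was used in counting is not given in the sources used here. S100A1 had 10, 8, 0 and 3 counts against 217, 277, 220 and 350 for S100A13.

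S100A2 and S100A3 were near the lower limit of measurement. S100A2, a nuclear S100 protein of epithelia, had 8 and 13 counts in WT and 17 and 30 in KO, or 0.616 and 1.06 against 1.54 and 1.76 CPM. Here KO was above WT in each library (log2 fold change 0.97, SE 0.51). In edgeR this value was 0.63 without WT replicate 1 and 1.42 without WT replicate 2, and it was 0.21 with limma on log2(RPKM + 1). The cysteine-rich member S100A3 had 0.848 and 0.737 CPM in WT and 0.361 and 1.23 CPM in KO. Its KO libraries lay on either side of WT, and its log2 fold change of 0.05 had an SE of 0.71.

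The remaining 3 members did not pass the filter on low counts. S100A10, the annexin A2 partner p11, had 3 and 5 counts in WT and 0 and 67 in KO, so that 1 KO library held nearly all of its counts. S100P had 0 and 3 counts in WT and 0 and 1 in KO. S100A11 was listed at 0 in every library. A count of 0 allows up to 0.176 to 0.271 CPM in a single library (3 counts; counting error only). Because abundant genes such as ACTB also had low estimates here, a value of 0 is given only as listed.

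Of the 7 members fitted, 3 had a log2 fold change below 0, against 51.5% of all 12269 genes tested, and the median was 0.04 against -0.01 over all genes. The KO libraries were both below the lower WT library in 3 members (S100A4, S100A14 and S100A16), where 23.5% of all genes did so, and both above the higher one in 1 (S100A2), where 23.5% of all genes did. In 3 members the groups overlapped. The choice of members rested on this contrast, so nothing is read from these counts. Summed over the 10 members, levels were 177.1 and 231.4 CPM in WT and 162.7 and 153.6 CPM in KO. Without S100A6 the sums were 144.8 and 145.1 CPM in WT and 76.1 and 78.5 CPM in KO. The near-equal WT sums hold opposite differences between WT replicates 1 and 2. S100A16 had 47.3 and 24.5 CPM there, but S100A14 31.8 and 45.1 and S100A13 16.7 and 22.7 CPM. The KO sums include S100A14 and S100A4, which were selected as lower in KO, so they describe no drop of the family as a whole.

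**Figure D2:**
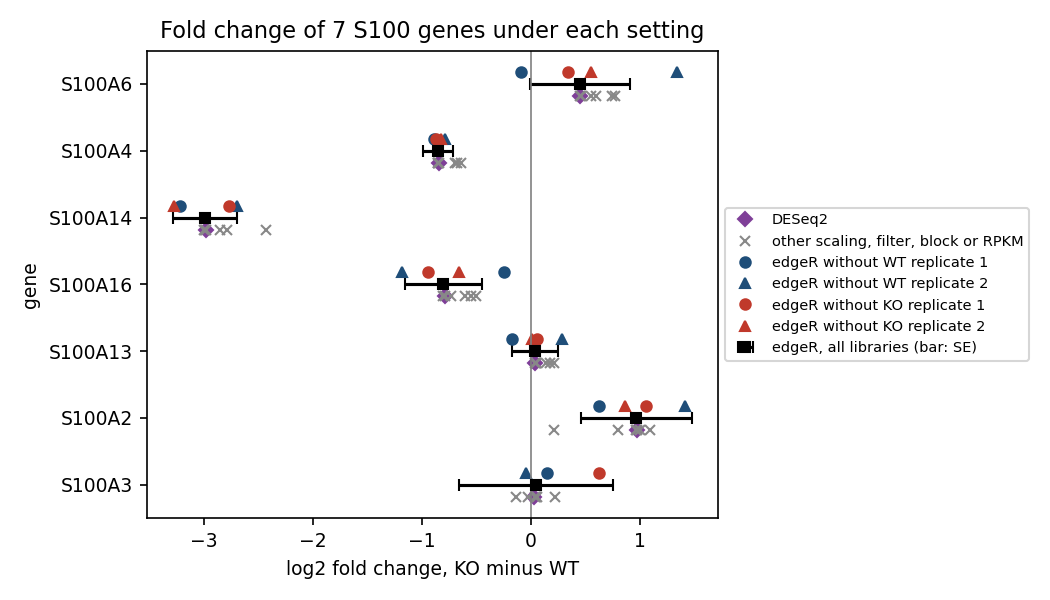
Log2 fold change (KO minus WT) of the same 7 genes; the black square and bar give the edgeR value with its SE, coloured points the edgeR value with 1 library left out, the purple diamond DESeq2, and grey crosses other scalings, the filter, the replicate block and RPKM. S100A14, S100A4 and S100A16 stay below 0 at every point shown, while S100A6 moves from -0.09 to 1.34 with the WT library left out. S100A14 and S100A4 were selected as lower in KO.

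Levels can be compared between genes only per length, and the answer depended on the length used. In the deposited RPKM, which carry no TMM scaling, the order of the WT means was S100A6 (42.9), S100A14 (18.5), S100A4 (17.4), S100A16 (9.30), S100A13 (2.00), S100A3 (0.392) and S100A2 (0.169 RPKM), followed by S100P (0.0307), S100A10 (0.0287) and S100A11 (0). The ranges of the 2 WT libraries overlapped between S100A6 and S100A14, between S100A14 and S100A4, and between S100P and S100A10. For the other neighbours in this order they did not overlap. In KO the order began with S100A6 (62.6), S100A4 (10.7), S100A16 (6.16), S100A14 (2.53) and S100A13 (2.26 RPKM). S100A14 thus went from the second to the fourth place, where its KO range of 2.10 to 2.96 RPKM contained that of S100A13. S100A10 and S100A11 took their places by estimates close to 0, which carry the limit given beside ACTB. The gene length behind the deposited RPKM was 2002 bases for S100A14, whose annotated gene spans 2732 bases and whose longest mature transcript has 1218. For S100A13 it was 9475 bases against a span of 12574 and a mature transcript of 2184. Across 11214 genes, which are not independent replicates, this length followed the genomic span with Spearman's rho 0.941 and the mature length with 0.518. By CPM per kilobase of mature transcript, 6 of the 10 members kept their place in WT, and S100A4 (64.6) came before S100A14 (31.6) and S100A16 (31.3 CPM per kilobase). S100A6 still had the highest mean, but in WT replicate 1 S100A4 lay above it (62.6 against 48.0 CPM per kilobase). In KO this measure put S100A14 in the fifth place, at 3.26 to 4.63, below S100A13 at 9.10 to 9.41 CPM per kilobase and with no overlap.

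**Figure D3:**
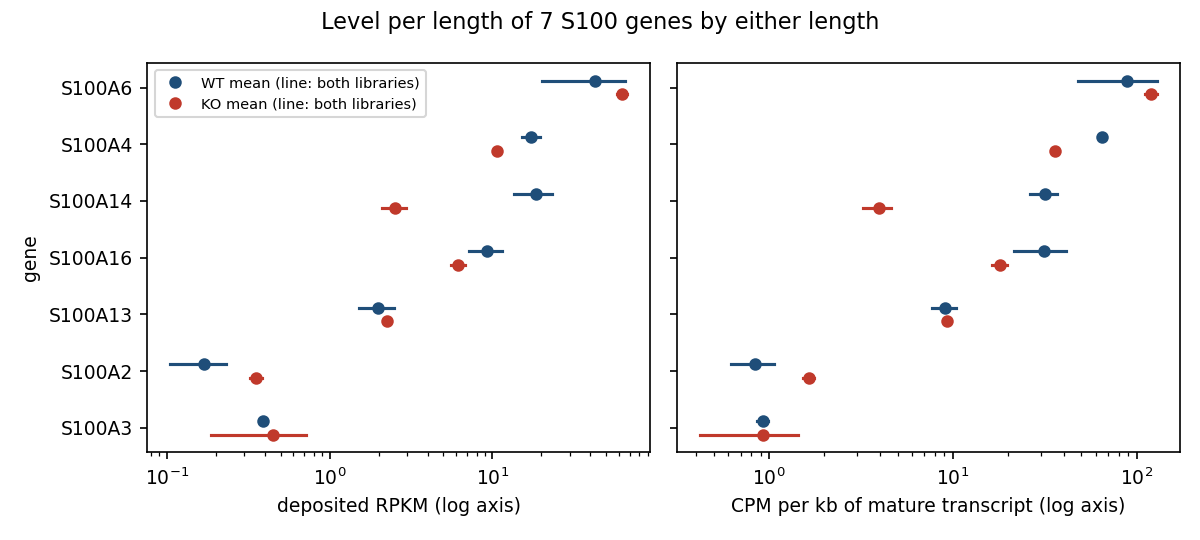
Level per length of the 7 genes in WT (blue) and KO (red), by the deposited RPKM on the left and by CPM per kilobase of the longest mature transcript on the right, both on log axes; points are group means and lines join both libraries. The mean of S100A6 is the highest by either measure in both groups, and S100A14 moves down to 2.53 RPKM in KO.

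Of the other S100 genes, 8 of 11 had a row and 5 of these had 0 counts in every library (S100A7, S100A7A, S100A8, S100B and S100G). S100A7L2, S100A9 and S100A12 were not analysed here. S100A5, a gene between S100A6 and S100A4, was the 1 of this list that could be tested, with 35 and 30 counts in WT and 15 and 12 in KO. Its KO libraries lay below WT (log2 fold change -1.34, SE 0.50), but it did not pass in edgeR (adjusted p = 0.441) or DESeq2 (adjusted p = 0.791). S100A1 had the counts given above and S100Z had 0, 2, 0 and 0. The fused-type S100 genes, large epidermal proteins that carry an S100 domain, were near 0 in the 3 of 7 that had a row (CRNN, FLG2 and RPTN), with at most 0.176 CPM in sum.

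Genes around the cluster were described to see whether the S100 genes moved with their neighbourhood. The edges of the cluster were the first and last S100 genes annotated on chromosome 1, tested or not. Genes beyond the edges thus need not lie close to S100A14 or S100A4. The nearest tested genes outside the family, 10 beyond either edge, numbered 20, and no other tested gene lay in between. Their median log2 fold change was 0.13, with 15 above 0 and 5 below, and their summed level was 754.9 and 743.3 CPM in WT and 783.6 and 778.3 CPM in KO. At an adjusted p under 0.05, which 0.00815% of all tested genes passed in edgeR and 1.38% of 13258 in DESeq2, both called 0 of them. In edgeR 2 had an unadjusted p under 0.05, as did 11.2% of all tested genes. These were ILF2, an RNA-binding partner of NF90 (log2 fold change -0.68, SE 0.22; edgeR adjusted p = 0.395), and DENND4B, an exchange factor for RAB10 (0.66, SE 0.20; edgeR adjusted p = 0.388). CHTOP, an mRNA export factor beside S100A1 and the neighbour with the most counts, had 267.2 and 233.2 CPM in WT and 250.9 and 268.4 CPM in KO. Within the cluster, S100A14 at -2.99 lay between S100A16 at -0.80 and S100A13 at 0.04, and S100A4 at -0.85 lay between S100A5 at -1.34 and S100A3 at 0.05. The difference between adjacent genes was not tested.

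**Figure D4:**
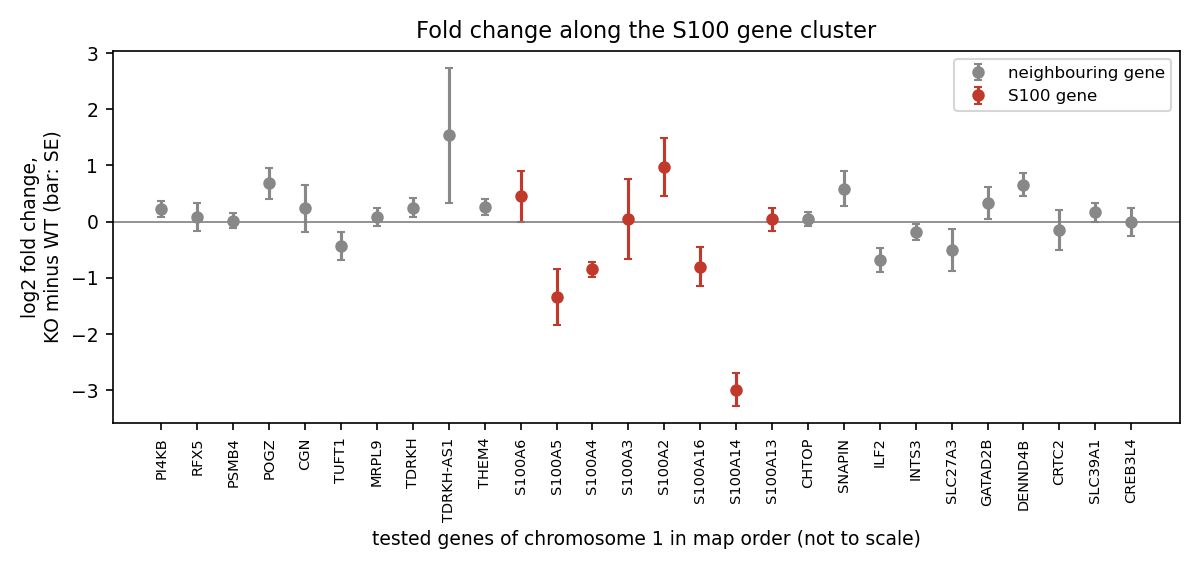
Log2 fold change (KO minus WT) with its SE for the tested genes of the chromosome 1 cluster and the 10 tested genes on either side, in map order and not to scale; S100 genes are red, others grey. S100A14 lies lowest at -2.99, and the neighbours lie between -0.68 and 1.54, the latter from the low-count antisense gene TDRKH-AS1.

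The mRNAs of proteins that S100 members bind had log2 fold changes from -1.24 to 1.71. Of 22 listed partners and receptors, 19 were tested, 5 with a log2 fold change above 0 and 14 below (median -0.08). Over all tested genes 51.5% lay below. In edgeR 0 passed, against 0.00815% of all tested genes. An unadjusted p under 0.05 in edgeR was reached by 2 (IQGAP1 and FGF1), and by 11.2% of all tested genes. DESeq2, which called 1.38% of all genes it tested, called 1 of the partners, lower. This was IQGAP1, a scaffold that S100P binds, with 181.5 and 89.3 CPM in WT and 56.1 and 58.3 CPM in KO. WT exceeded KO in each library, but the WT libraries were 2.03-fold apart. Its log2 fold change of -1.24 (SE 0.34) had an adjusted p of 0.0218 by DESeq2 and 0.361 by edgeR. That DESeq2 call was lost with WT replicate 1 (-0.64), KO replicate 1 (-1.20) or KO replicate 2 left out (-1.26). It was kept with WT replicate 2 left out (-1.66). Each of these fits leaves 1 library in a group, so nothing is read from these calls. FGF1, the growth factor whose export needs S100A13, had 1.00 and 1.31 CPM in WT and 3.61 and 3.99 CPM in KO (a log2 fold change of 1.71, SE 0.40, with an adjusted p of 0.308 by edgeR and 0.382 by DESeq2). CACYBP, held by S100A6, had a log2 fold change of -0.27 (SE 0.22; edgeR adjusted p = 0.642). The S100A4 target MYH9 had 36, 32, 31 and 36 counts (-0.14, SE 0.38). For the annexins ANXA2 and ANXA1, bound by S100A10 and S100A11, the values were -0.58 (SE 0.34) and -0.08 (SE 0.19). The receptor AGER had 37, 37, 42 and 50 counts, and TLR4 had 0 in every library.

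Other EF-hand genes lay on both sides of 0. Of 34 listed, 27 were tested, with 11 above 0 and 16 below and a median of -0.12, where 51.5% of all tested genes lay below. EdgeR, which called 0.00815% of all tested genes, and DESeq2, which called 1.38%, both called 0. An unadjusted p under 0.05 in edgeR was reached by 4, and by 11.2% of all tested genes. CAPN2, the large subunit of a calcium-activated protease, had 44.1 and 41.3 CPM in WT and 63.5 and 64.8 CPM in KO (0.59 on the log2 scale, SE 0.13; adjusted p = 0.285 by edgeR). TESC, a calcium sensor that binds the sodium-proton exchanger, had 0.81 (SE 0.22; edgeR adjusted p = 0.353), PLS3, an actin-bundling protein, -0.54 (SE 0.17; edgeR adjusted p = 0.394) and RCN2, of the endoplasmic reticulum, -0.36 (SE 0.14; edgeR adjusted p = 0.447).

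Epithelial markers were lower in the KO libraries in sum, beside S100A14, which is itself typical of epithelia. They summed to 2943 and 2464 CPM in WT and 1810 and 1719 CPM in KO, mostly through the keratin KRT19, which fell from 1994 ± 353 to 1145 ± 86.5 CPM (SD, n = 2 each). Its log2 fold change of -0.80 (SE 0.18) had an adjusted p of 0.00298 by DESeq2 and 0.293 by edgeR. The DESeq2 call was lost with KO replicate 1 (-0.86) or KO replicate 2 left out (-0.72). It was kept with WT replicate 1 (-0.61) or WT replicate 2 left out (-0.96). Each of these fits leaves 1 library in a group, so nothing is read from these calls. Without KRT19 the sums were 699.8 and 719.4 CPM in WT and 603.9 and 635.3 CPM in KO. Of the 7 tested markers 6 had a log2 fold change below 0, as did 51.5% of all genes. EdgeR called 0 of the markers, against 0.00815% of all tested genes. DESeq2 called 1 (KRT19), against 1.38% of all genes it tested. An unadjusted p under 0.05 in edgeR was reached by 4, all lower, and by 11.2% of all genes. The marker above 0 was the keratin KRT18, with 59.0 and 116.7 CPM in WT and 97.7 and 136.0 CPM in KO (0.41, SE 0.36; edgeR adjusted p = 0.662), where the groups overlapped. Besides KRT19 the 4 were the tight-junction genes CLDN4 (-0.88, SE 0.17; edgeR adjusted p = 0.260) and CLDN7 (-0.30, SE 0.12; edgeR adjusted p = 0.445) and the cadherin CDH1 (-0.76, SE 0.26; edgeR adjusted p = 0.420). Their part in the level of S100A14 was not tested. S100A4 is also used as a fibroblast marker, and the only fibroblast gene of the list that was tested, COL1A1, had 12, 20, 7 and 21 counts.

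Over the 4 libraries, the genes whose centred log2 CPM came closest to that of S100A14 were KLK6 (Euclidean distance 0.321), KIF5A (0.337) and SYNM (0.356). KLK6 had 10.5 and 14.9 CPM in WT and 0.994 and 2.17 CPM in KO; the others were at 2.85 to 4.01 CPM in WT and had 0 counts in KO, so their distance depends on the 0.5 CPM added before taking logs. Closest to S100A4 were INPP5J (0.046), CUEDC1 (0.085) and F8 (0.0858). INPP5J had only 2.08 and 2.21 CPM in WT and 0.994 and 0.998 CPM in KO (log2 fold change -1.10 in edgeR). Its distance thus also depends on the 0.5 CPM added. CUEDC1 had 84.2 and 90.2 CPM in WT and 52.6 and 50.7 CPM in KO. Such likeness rests on 4 libraries and 12269 genes, and is a description only.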

How the data were processed

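RNA-seq libraries of ribosome-depleted total RNA from 2 WT and 2 KO samples of HCT116 were analysed. The authors deposited estimated counts per gene, rounded to whole numbers, and RPKM of each library. The submitters' processing notes name Salmon 1.10.1 and hg19. Not given in the sources used here are the annotation, the step from transcripts to genes and the use of strand. From the values, the deposited RPKM are counts divided by the library total and by 1 length per gene. Of 35820 rows, 16471 had 0 counts in every library.

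Counts were fitted on the whole table with edgeR's quasi-likelihood test (edgeR 4.0.16, limma 3.58.1, R 4.3.3; TMM, filterByExpr, genotype alone, Benjamini-Hochberg adjustment, threshold 0.05), which tested 12269 genes. SE of log2 fold changes were obtained as |log2 fold change| over the square root of F. CPM use the TMM-scaled totals, and distances used log2(CPM + 0.5). DESeq2 1.42.0 (Wald test), other scalings, no filter, the replicate number as a block, limma on log2(RPKM + 0.1) and log2(RPKM + 1), and each library left out were alternatives. Scripts were tested on simulated data. GENCODE 29 (GRCh38) gave order, strand and lengths only, since the authors' build differs.

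The members and lists were chosen with earlier results of these data known. Lists were other and fused-type S100 genes, binding partners, other EF-hand genes, epithelial, fibroblast, leukocyte and endothelial markers, and chromosome 1 neighbours. Named genes were all members, all other S100 genes, at most 6 genes of each further list with an unadjusted edgeR p under 0.05, every DESeq2 call in them, TOP3B, and the 3 genes closest to S100A14 and to S100A4. Further partners with a textbook link to a member (ANXA1, ANXA2, CACYBP, MYH9, AGER and TLR4) were named after their values were seen. So were KRT18, CHTOP, TDRKH-AS1, ACTB, EEF1A1, GAPDH and COL1A1.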

Additional observations from a re-analysis of the deposited data

How the results depend on the processing

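With no filter on low counts edgeR called 34 genes, with library totals alone 42, and with limma on log2(RPKM + 0.1) 6 and on log2(RPKM + 1) 0; DESeq2 called 183. Leaving out 1 library gave 0 to 575 calls in edgeR, the highest without WT replicate 2, and 86, 721, 75 and 72 in DESeq2 (without WT replicates 1 and 2, then KO replicates 1 and 2), an alternative added after seeing the data. With 1 library left out, members with a log2 fold change below 0 numbered 3 to 5 of the 6 to 8 fitted in edgeR. They numbered 4 to 6 of 9 in DESeq2, which was run without that filter. In 3 or 4 members each KO library kept lay below each WT library kept, under every alternative. With 1 library left out this condition is easier to meet, so nothing is read from it. Of the listed genes outside the family, DESeq2 called 2 (IQGAP1 and KRT19), edgeR with library totals alone called 1 (KRT19), and leaving out 1 library gave 0 to 9 calls in edgeR and 0 to 14 in DESeq2. The 9 and 14 calls came without WT replicate 2, the fits that also had the most calls over all genes. Those fits tested 13018 genes in edgeR and 12273 in DESeq2, and gave the 575 and 721 calls above. The number of listed genes tested in them is not given. A fit with 1 library left out has 1 library in a group, so nothing is read from such calls. By mature length 6 of 10 members kept their place in the WT order.

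Some members changed sign. S100A6 was at -0.09 without WT replicate 1 in both tools, and its edgeR values with 1 library left out reached 1.34. S100A13 was at -0.17 in edgeR and -0.16 in DESeq2 without that library, and reached 0.29 in edgeR without WT replicate 2. S100A3 reached 0.63 in edgeR without KO replicate 1 and was at -0.13 with the replicate block, -0.02 with limma on log2(RPKM + 0.1), -0.04 (edgeR) and -0.07 (DESeq2) without WT replicate 2, and -1.12 in DESeq2 without KO replicate 2. The cause was not tested. Over all alternatives S100A14 ranged from -3.27 to -2.43, S100A4 from -0.89 to -0.64 and S100A16 from -1.19 to -0.24. S100A14 and S100A4 were selected as lower in these KO libraries, so nothing is read from their unchanged sign. With the replicate number as a block edgeR called 1 gene, as without it, and 4 members were below 0; same-numbered libraries share only a number, and their deviations had a correlation of 0.0637 across genes. Depth limits S100A2 and S100A3, at 4 to 30 counts a library, and no fold change is given for S100A10, S100A11 and S100P, which did not pass the filter on low counts.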
